A study of Arabidopsis thaliana with 6 samples.

Results

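Cytochrome P450 genes were compared between bzr1-1D and det2 seedlings of Arabidopsis thaliana. A gene counted as a member when its probe set was matched to 1 gene alone and that gene's symbol had the form of a P450 name (CYP, a family number, a subfamily letter and a gene number). The rule found 23 genes, each with 1 probe set, among the 13350 genes with a single-gene probe set. The RefSeq gene table of the TAIR10.1 assembly holds 236 genes with symbols of this form, so the genes described here are a part of the family. Of the 23, 22 belong to P450 clan 71 and 19 of those to a single subfamily, CYP71B. The remaining clan 71 members were CYP78A9, CYP79A2 and CYP84A4, and CYP51G2 was the one member of clan 51. RefSeq lists CYP51G2 and CYP71B27 as transcribed pseudogenes.

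Each array held RNA from whole seedlings, all in the Columbia-0 background, of bzr1-1D (3 arrays) or det2 (3 arrays). The bzr1-1D mutant carries a dominant allele that keeps BZR1 active, the transcription factor at the end of brassinosteroid signalling, and det2 lacks a steroid reductase of brassinosteroid synthesis; the labels give no det2 allele. Seedlings of both genotypes were cultured in shaken liquid medium with sucrose for 5 days in constant light at 22 °C and then incubated for 3 hours with ethanol, the mock treatment that all 6 samples share, so each array stands for the pooled seedlings of a culture. The work was done in 3 experiments in different weeks, and arrays with the same number are from the same experiment. Wild-type seedlings were not analysed here, so no value tells which mutant departs from the wild type.

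Plant cytochrome P450 enzymes are haem proteins, mostly anchored in the endoplasmic reticulum, that use oxygen and electrons from a reductase to hydroxylate or otherwise oxidise small molecules. They build and break down hormones, pigments, wall and surface polymers and defence compounds. Brassinosteroids are themselves made and inactivated largely by P450 enzymes, those of families CYP85, CYP90, CYP72 and CYP734, and active BZR1 is known to repress several of the synthesis genes. The CYP71B subfamily, which has expanded in Arabidopsis by tandem duplication, holds the last enzyme of camalexin synthesis and many members with no assigned substrate.

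Levels are intensities on a linear scale from 1-colour ATH1 arrays, on which the median probe set stood between 212.75 and 221.4. With only 3 arrays per genotype, precision is limited, and no depth applies. Whole seedlings were ground, so fewer cells of a type and less RNA per cell cannot be told apart. In the annotation used, BZR1 and DET2 had 0 named probe sets, so the genotype labels were not checked against their levels. Each difference is the log2 of intensity plus 50 in bzr1-1D less that in det2, and the added 50 makes the differences of dim genes look smaller. Near-identical relatives within CYP71B could share hybridisation signal, although no member was measured by a probe set of the kind that Affymetrix marks as shared between transcripts.

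No P450 gene differed between the genotypes past the test over all probe sets. By limma, with experiment as a block and p-values adjusted by Benjamini-Hochberg, 0 of 23 members had an adjusted p under 0.05, and over the whole array the share was 0% of 22746 probe sets. The lowest adjusted p among the members was 0.70 and belonged to CYP51G2. At an unadjusted p under 0.05 the members gave 1 gene of 23, beside 6.84% of all probe sets. Log2 differences ran from -0.48 (CYP51G2) to 0.56 (CYP71B22), with 13 members higher and 10 lower in bzr1-1D. With no offset the range was -1.04 (CYP71B30P) to 1.41 (CYP71B31), both genes being dim. The median was 0.041, beside -0.015 over all 13350 genes. It was 0.066 beside -0.021 with an offset of 16, and 0.115 beside -0.026 with none. The 95% confidence interval of the difference (limma) lay wholly between -1 and 1 for 19 of the 23 members (82.6%), beside 86.7% of all probe sets. Of the 11 members with no array below 50, it did so for 8 (no matching share over the array was computed). It reached past 1 for CYP71B6, CYP71B22, CYP71B23 and CYP84A4, and past -1 as well for CYP71B23. Such an interval understates the range for dim genes, which the offset compresses.

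**Figure D1:**
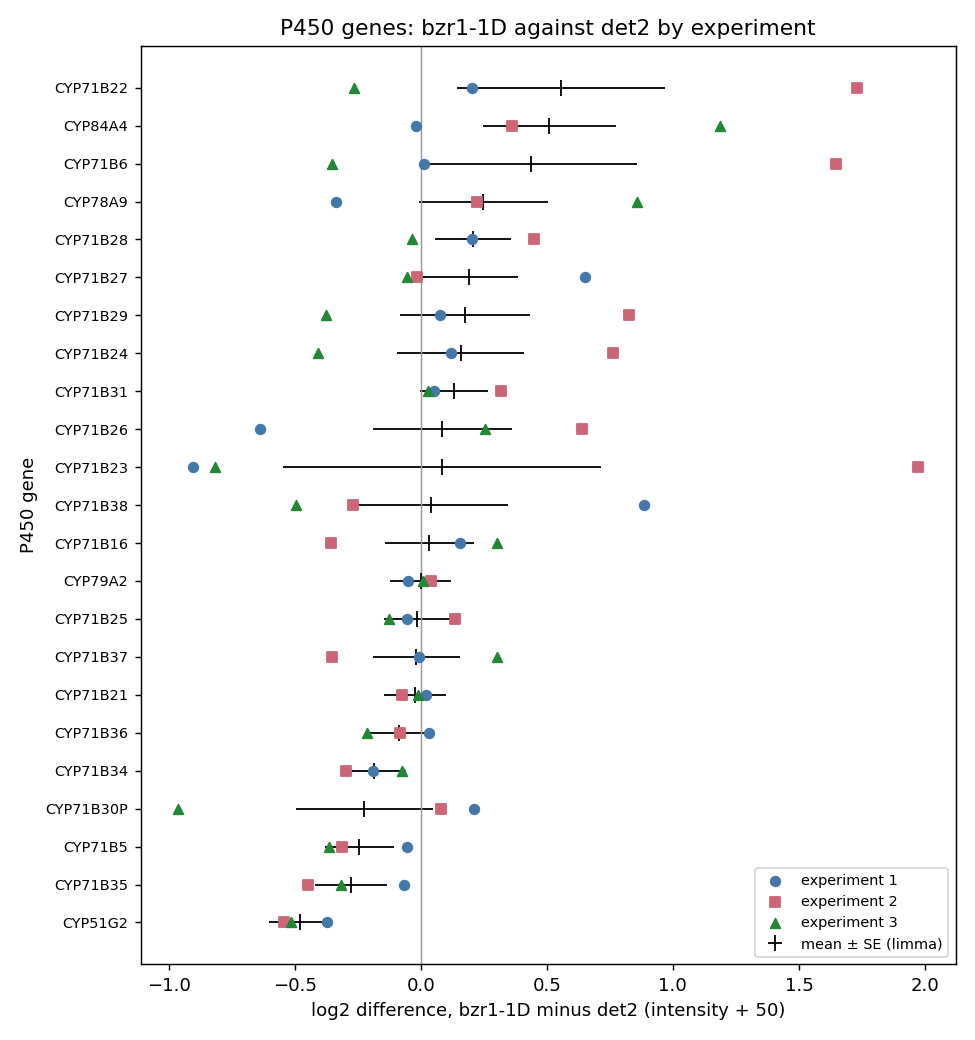
Log2 difference (bzr1-1D minus det2, intensity plus 50) on the horizontal axis for each of the 23 P450 genes, ordered by their mean, with 1 symbol per experiment; the black tick and bar are the mean and SE from limma. CYP51G2 at the bottom has its 3 symbols together between -0.54 and -0.37, while CYP71B23 spans -0.90 to 1.97.

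In all 3 experiments 5 of the 23 members kept 1 direction, 1 higher and 4 lower in bzr1-1D. Over all probe sets 28% did so, 2825 higher and 3537 lower. The genotypes did not overlap for 1 member, CYP71B31, beside 9.32% of all probe sets. That gene was at 4.3, 14.7 and 4.3 in bzr1-1D, against 2.4, 1.9 and 3.2 in det2 in experiments 1 to 3, which is far below the offset. Its log2 difference was 0.13 ± 0.14 (SE), 0.33 with an offset of 16, 1.41 with none and 0.04 without experiment 2.

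CYP51G2 (AT2G17330) was lower in bzr1-1D in every experiment and by a similar amount each time. This transcribed pseudogene is a relative of the sterol 14-demethylase gene CYP51G1, whose enzyme acts in the sterol pathway that precedes brassinosteroids. Its intensity was 94.9, 169.6 and 110 in bzr1-1D in experiments 1, 2 and 3, against 137.6, 270.1 and 178.6 in det2. Both genotypes were highest in experiment 2 and lowest in experiment 1, so the groups overlapped although each pair was ordered the same way. The means were 124.8 ± 39.5 (SD, n = 3) and 195.4 ± 67.8 (SD, n = 3). The log2 differences of the 3 experiments were -0.37, -0.54 and -0.51, and their mean was -0.48 ± 0.13 (SE; limma, unadjusted p = 0.0144, adjusted p = 0.70). Without the experiment block the unadjusted p by limma was 0.104, and with experiment as a random effect it was 0.0562. It was under 0.05 without experiment 1 (0.0393) and not without experiment 2 or 3.

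CYP71B34, CYP71B35 and CYP71B5, for which no role is given here, also stood lower in bzr1-1D in each experiment, by smaller amounts. CYP71B34 (AT3G26300) was at 518.3, 500.9 and 390.9 in bzr1-1D, against 597.5, 626 and 414 in det2, with a log2 difference of -0.19 ± 0.13 (SE). CYP71B5 (AT3G53280) was at 215.7, 212.4 and 154.4 in bzr1-1D, against 225.8, 275.4 and 213.1 in det2, giving a log2 difference of -0.24 ± 0.14 (SE). For CYP71B34 and CYP71B5 the det2 array of experiment 2 was the highest of the 6. CYP71B35 (AT3G26310), the direct neighbour of CYP71B34, was dim, with 81.8, 31.8 and 41.8 in bzr1-1D, against 87.9, 61.6 and 64.4 in det2. Its log2 difference was -0.28 ± 0.14 (SE), and -0.56 with no offset. None of the 3 had an unadjusted p under 0.05 by limma (0.210, 0.112 and 0.139 for CYP71B34, CYP71B35 and CYP71B5).

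The widest gaps within an experiment, at CYP71B23, CYP71B22 and CYP71B6, came from a single array, that of bzr1-1D in experiment 2. It was the highest of the 6 arrays for 9 of the 23 members, beside 18.2% of all probe sets. In 4 members, CYP71B6, CYP71B22, CYP71B23 and CYP71B29, it exceeded the next array by over 1.5 times after the offset was added, beside 2.45% of all probe sets. Dim genes can hardly meet that limit. Of the 11 members with no array below 50, the same 4 met it, beside 2.45% of the 16147 probe sets with no array below 50. No other array led by that margin in any member, and over all probe sets it did so 558 times in this array and between 63 and 256 times in the others. The limit was chosen after the values were seen.

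CYP71B6 (AT2G24180) encodes an enzyme that converts indole-3-acetonitrile, a product of indole glucosinolate and camalexin metabolism, to indole-3-carboxylic acid. Its intensity was 1201, 4651 and 951.4 in bzr1-1D, against 1191, 1450 and 1227 in det2. The 5 arrays other than bzr1-1D of experiment 2 lay within 951.4 and 1450, and that array was 3.21 times the highest of them. Its log2 differences were 0.01, 1.65 and -0.35, with a mean of 0.44 ± 0.42 (SE) that became -0.17 without experiment 2.

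CYP71B23 (AT3G26210) had the widest spread of all members in its log2 differences between experiments. It was at 209.8, 1183 and 113.2 in bzr1-1D, against 435.6, 263.8 and 237.5 in det2. The bzr1-1D array was below its det2 partner in experiments 1 and 3, by -0.90 and -0.82, and above it by 1.97 in experiment 2. The mean of 0.09 ± 0.63 (SE) therefore hides opposed values. Without experiment 2 the log2 difference was -0.86 (limma, unadjusted p = 0.00589, adjusted p = 0.879).

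CYP71B22 (AT3G26200), next to CYP71B23 on chromosome 3 with 0 genes between them, was at 131.4, 541.6 and 190.1 in bzr1-1D, against 107.7, 128.2 and 238.8 in det2. The one high array was 2.27 times the highest of the other 5. Its log2 difference of 0.56 ± 0.41 (SE) was the highest among the members at the offset of 50, though not at 16 or with none, and became -0.03 without experiment 2. CYP71B29 (AT1G13100), on chromosome 1, was at 186.5, 348.1 and 147 in bzr1-1D, against 174.1, 174.7 and 205.7 in det2, and its log2 difference of 0.18 ± 0.26 (SE) became -0.15 without experiment 2. CYP71B24 (AT3G26230) followed the same order more weakly, with 73.7, 182 and 90.4 in bzr1-1D, against 63.8, 86.9 and 136.2 in det2. In these 5 genes the bzr1-1D array of experiment 3 was below its det2 partner. So it was in 16 of the 23 members, and in 9 of the 11 with no array below 50.

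**Figure D2:**
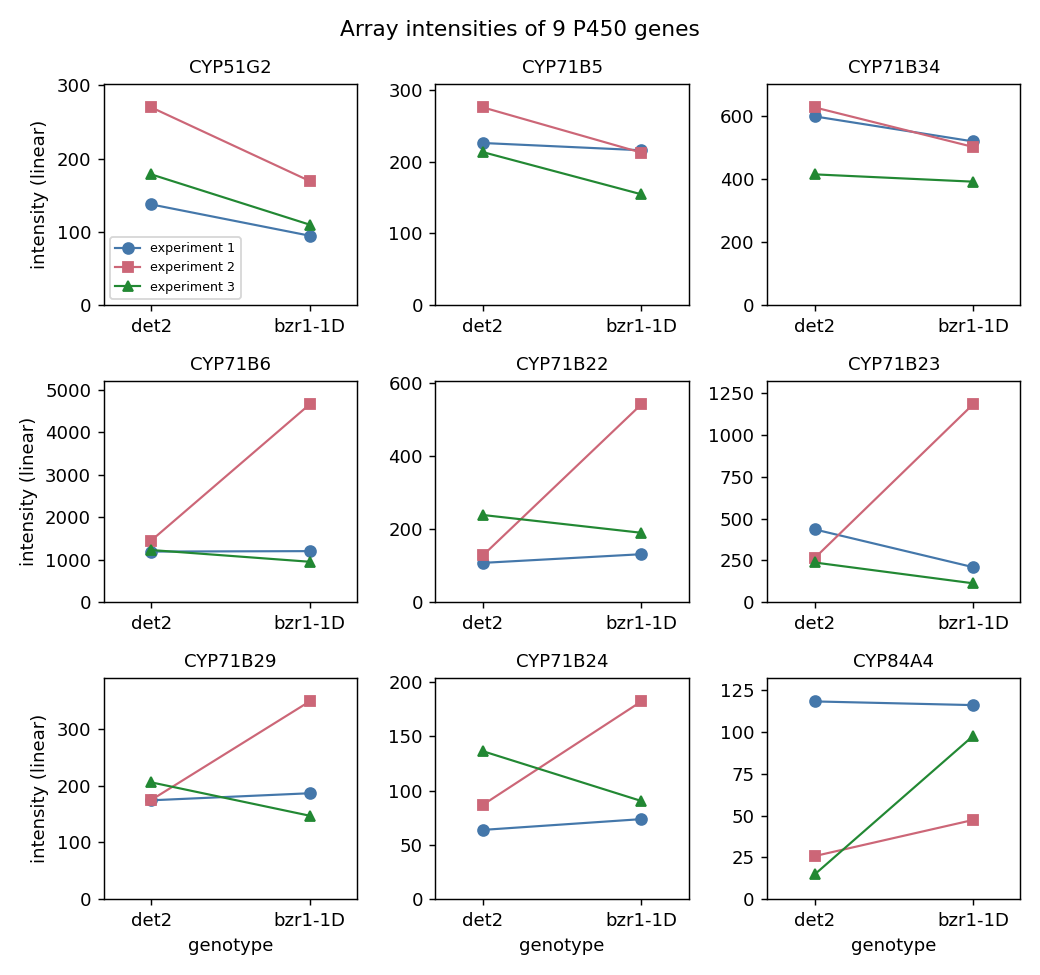
Linear intensity (vertical axis, from 0) of 9 P450 genes in det2 and bzr1-1D, with a line joining the 2 arrays of each experiment. CYP51G2, CYP71B5 and CYP71B34 slope down in all 3 experiments, while CYP71B6, CYP71B22, CYP71B23 and CYP71B29 have a single high array, bzr1-1D of experiment 2. CYP71B24 is highest in that array, with det2 of experiment 3 next.

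Of the 23 members, 17 lay in 3 runs of neighbouring P450 genes, and 11 stood directly beside another member. Chromosome 3 carries a run of 24 annotated genes from CYP71B16 (AT3G26150) to CYP71B37 (AT3G26330), 18 of them CYP71B genes. Of these, 11 were members. The platform annotation names no coordinates, so the RefSeq table was used for gene order alone. Within the run bzr1-1D was higher at 5 genes and lower at 6, with a median log2 difference of -0.014. The median was -0.005, -0.075 and -0.125 in experiments 1, 2 and 3. A probe set shared by CYP71B19 and CYP71B20, both within the run, was not counted as a member. It was at 217.1, 482 and 381.5 in bzr1-1D, against 162.9, 872.6 and 947.7 in det2. Its log2 differences were 0.33, -0.79 and -1.21, with a mean of -0.56 ± 0.32 (SE), and the adjusted p by limma was 0.768.

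The run was not uniform. CYP71B22, CYP71B23 and CYP71B24, which lie close together, had log2 differences of 1.73, 1.97 and 0.76 in experiment 2. CYP71B21, directly before them, was dim on every array (1.2 to 7.7), with a log2 difference of -0.02 ± 0.12 (SE). At the far end CYP71B34, CYP71B35, CYP71B36 and CYP71B37, which follow each other with 0 genes between, were all lower in bzr1-1D in experiment 2, by -0.30, -0.45, -0.08 and -0.35. These stretches were picked out after the values were seen.

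Between them CYP71B26 (AT3G26290) was at 308.8, 304.6 and 465.8 in bzr1-1D, against 507.8, 177.5 and 382.8 in det2, and its difference turned from -0.64 in experiment 1 to 0.64 in experiment 2. CYP71B37 was at 107.8, 103.9 and 122.6 in bzr1-1D, against 108.4, 146.4 and 89.9 in det2, with a log2 difference of -0.02 ± 0.17 (SE). CYP71B16, CYP71B25 and CYP71B36 stayed below 50 on all 6 arrays, with log2 differences of 0.03, -0.01 and -0.09.

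**Figure D3:**
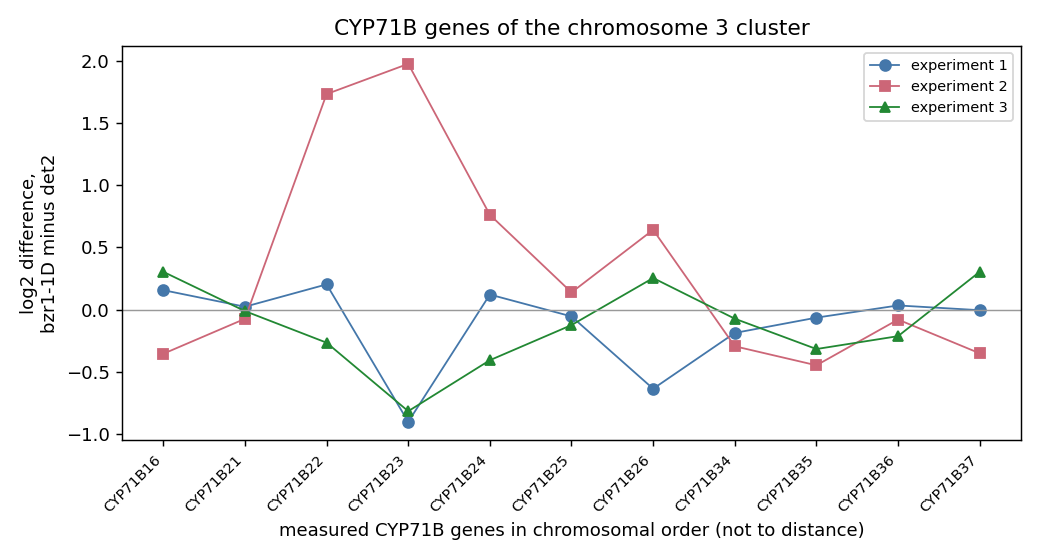
Log2 difference (bzr1-1D minus det2, intensity plus 50) of the 11 CYP71B members of the chromosome 3 run, with 1 line per experiment. Genes are in chromosomal order without regard to distance. In experiment 2 the line rises to 1.97 at CYP71B23 and lies below 0 from CYP71B34 to CYP71B37.

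A smaller run on chromosome 1, CYP71B27, CYP71B28 and CYP71B29, had 3 genes higher on average in bzr1-1D, and all 3 were lower in experiment 3. CYP71B28 (AT1G13090) was at 162.9, 187.8 and 179.9 in bzr1-1D, against 134.9, 124 and 185.3 in det2, giving a log2 difference of 0.21 ± 0.15 (SE). It was 0.08 without experiment 2 and 0.33 without experiment 3. The pseudogene CYP71B27 was at 74.9, 49.6 and 43.9 against 29.6, 50.7 and 47.5, so experiment 1 alone set its 0.19 ± 0.19 (SE). On chromosome 3 CYP71B5 is followed by CYP71B30P and CYP71B31. CYP71B30P (19.2, 36.2 and 2.7 in bzr1-1D; 9.8, 31.5 and 52.8 in det2) changed order between experiments. CYP71B38, on chromosome 3 but outside the runs, was at 62.8, 46.2 and 25.2 in bzr1-1D, against 11, 66 and 55.9 in det2. Its log2 difference was 0.04 ± 0.31 (SE).

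Outside CYP71B, 3 members have known products or effects, and none passed the test. CYP84A4 (AT5G04330) makes a precursor of the arabidopyrones, pyrone compounds derived from phenylpropanoids. It was at 116.1, 47.4 and 97.6 in bzr1-1D, against 118.3, 25.8 and 14.8 in det2. The genotypes were level in experiment 1, and bzr1-1D was higher by 0.36 in experiment 2 and by 1.19 in experiment 3. The log2 difference of 0.51 ± 0.26 (SE; limma, unadjusted p = 0.114, adjusted p = 0.752) became 0.82 when 16 was added in place of 50, and 1.19 when nothing was added. It was 0.17 without experiment 3 and 0.775 without experiment 1 (limma, unadjusted p = 0.0422, adjusted p = 0.491).

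CYP78A9 (AT3G61880), which promotes growth of the fruit and other organs, was at 47.6, 84.3 and 78.6 in bzr1-1D, against 73.3, 65.1 and 21 in det2. Its log2 difference of 0.25 ± 0.26 (SE) was 0.86 in experiment 3 and -0.34 in experiment 1. CYP79A2 (AT5G05260), which converts phenylalanine to its aldoxime for benzyl glucosinolate, lay between 2.8 and 4.9 on the 6 arrays. At such levels no difference could be read.

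Dimness limited the reading of many members. Intensity was below 50 on all 6 arrays for 6 of the 23 members, beside 12.4% of all probe sets, and on some of the arrays for another 6. It was 50 or more on every array for 11. Among those 11, bzr1-1D was higher at 7 and lower at 4, with a median log2 difference of 0.086. That median was -0.005, 0.64 and -0.35 in experiments 1, 2 and 3. The 11 were also the members with a mean of at least 100 in the higher genotype. Of all 8636 genes with such a mean, 4093 were higher in bzr1-1D, with a median of -0.015. By experiment their median was -0.003, -0.035 and -0.026. The 11 include the 4 members that bzr1-1D of experiment 2 led by over 1.5 times.

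Variation between experiments was wide in the P450 genes, as it was over the array. The range of the mean log2 level over the 3 experiments exceeded the size of the genotype difference in 20 of 23 members (87%), beside 80.2% of all probe sets. Each experiment mean pools 2 arrays and each genotype mean 3, and a range over 3 means is set against a difference of 2. The quantities are therefore not on an equal footing, and the range would often be the larger with no experiment effect. The members with the widest ranges were CYP71B23 (1.52), CYP71B6 (1.23), CYP84A4 (0.96) and CYP71B22 (0.94). For CYP71B23, CYP71B6 and CYP71B22 the high mean of experiment 2 rested on its bzr1-1D array, described above, and not on both genotypes. The SD of the members' log2 differences over experiments 1, 2 and 3 was 0.363, 0.707 and 0.479, beside 0.35, 0.592 and 0.469 over all probe sets. In experiments 1, 2 and 3, bzr1-1D was lower at 11, 10 and 16 of the 23 members, beside 49.1%, 52.1% and 54.1% of all probe sets.

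The P450 genes of hormone, sterol, fatty acid, terpenoid and carotenoid metabolism were not analysed here. Of 100 P450 names in 8 lists by function, 3 were members by the rule. There was 1 each in the lists for glucosinolates and camalexin, for phenylpropanoids and for organ size. The lists of brassinosteroid and sterol P450 enzymes (15 names) and of other hormones (17 names) had 0 members. The platform annotation gave 8730 probe sets no gene, so these counts do not tell which genes the array covers. Of 46 listed names for partner genes of P450 pathways, 1 had a single-gene probe set under that symbol. This was UGT74B1 (AT1G24100), the glucosyltransferase that acts after the P450 steps of glucosinolate synthesis, with 1026, 2156 and 1587 in bzr1-1D, against 1284, 2288 and 1540 in det2. Its log2 difference was -0.12 ± 0.14 (SE), and both genotypes were highest in experiment 2.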

How the data were processed

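Per the labels, the authors hybridised 15 µg of biotinylated cRNA from whole seedlings to each ATH1 array and obtained each intensity with GCOS 1.1 at a target intensity of 500. Per the labels they then divided by an array percentile and by the wild type in GeneSpring 7.0, but the deposited intensity values used here precede that division.

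Of 22810 probe sets, 64 controls were left out. The platform annotation gave 13513 probe sets 1 gene, 503 several and 8730 none. The 2 probe sets of several genes that include a P450 symbol were not counted as members. All 23 members were matched to a RefSeq locus tag.

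Intensities plus 50 were log2-transformed and fitted with limma 3.58.1 in R 4.3.3 (lmFit, eBayes, two-sided, experiment as a block, Benjamini-Hochberg adjustment over 22746 probe sets, no filter on dim probe sets). The labels say that genotypes were grown alongside each other in each experiment, and arrays of 1 experiment were therefore taken as pairs. Their departures from the genotype means correlated at 0.39, 0.08 and 0.37 in experiments 1 to 3, against -0.37 to 0.11 between experiments, so pairing in experiment 2 rests on the labels. The p-values then set the mean genotype difference against its variation over 3 experiments, with that variation moderated by limma across all probe sets.

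Genes were named by size of change with 1 direction in all experiments and a mean of at least 100 (3 genes), by function list (up to 4 a list) and by range between experiments (4 genes). Together this named 9 members; the others were described after their values were seen. The members, lists and offset were chosen with earlier results of these data known. The fit was tested on data simulated from its own means and spread with normal noise. That test cannot tell how the fit handles a single outlying array. Alternatives were no replicate block or a random one, other offsets, 2 normalizations, a minimum intensity of 100, robust eBayes with trend, leaving out shared probe sets, and leaving out each experiment. Figures were drawn with matplotlib 3.10.9.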

Additional observations from a re-analysis of the deposited data

How the results depend on the processing

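Under each of 12 alternatives 0 P450 genes had an adjusted p under 0.05 by limma, and the lowest adjusted p in any was 0.487. With no replicate block, or with experiment as a random one, 0 members had an unadjusted p under 0.05 by limma, against 1 with the block. In both settings 1 probe set of the whole array, outside the 23 members, had an adjusted p under 0.05, against 0 with the block. The block changed no other call. Leaving out an experiment gave from 0 to 2 members with an unadjusted p under 0.05 (CYP51G2 and CYP84A4 without experiment 1, CYP71B23 without experiment 2), from 0 to 0 members and 0 to 0 probe sets past adjustment, and a median log2 difference from -0.09 to 0.041. The lowest was without experiment 2, when 9 of 23 members were higher in bzr1-1D instead of 13. Where a mean of 100 was required, 11 members were tested and 7 were higher, fewer by construction. Direction turned for 15 of the 23 members when an experiment was left out, and the cause was not tested. Ranges of the log2 difference were -0.86 to 0.58 for CYP71B23, -0.17 to 0.83 for CYP71B6, -0.0322 to 0.967 for CYP71B22, -0.15 to 0.45 for CYP71B29, -0.14 to 0.44 for CYP71B24, -0.19 to 0.45 for CYP71B26, -0.38 to 0.31 for CYP71B38, -0.0573 to 0.54 for CYP78A9, -0.44 to 0.15 for CYP71B30P, -0.18 to 0.15 for CYP71B37, -0.0351 to 0.317 for CYP71B27, -0.10 to 0.23 for CYP71B16, -0.0902 to 0.041 for CYP71B25, -0.0436 to 0.00491 for CYP71B21 and -0.0215 to 0.0253 for CYP79A2. The 8 others kept their direction, with -0.53 to -0.44 for CYP51G2, 0.171 to 0.775 for CYP84A4, 0.085 to 0.327 for CYP71B28, 0.0405 to 0.185 for CYP71B31, -0.147 to -0.024 for CYP71B36, -0.337 to -0.182 for CYP71B5, -0.242 to -0.131 for CYP71B34 and -0.383 to -0.191 for CYP71B35. Quantile normalization turned CYP79A2 (0.0056), CYP71B37 (0.00038) and CYP71B25 (0.025), and centring turned CYP79A2 (0.0067), all from values near 0. Members below an intensity of 50 were limited by signal over background.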

Other observations

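CYP718 (AT2G42850), a P450 gene whose symbol has no subfamily letter and so falls outside the rule, was chosen after its values were seen. Its intensity was 24.1, 11.7 and 30.2 in bzr1-1D, against 12.4, 19.6 and 275.8 in det2. The det2 array of experiment 3 was high and the other 5 arrays were all below 50, and the log2 difference was -0.65 ± 0.47 (SE; limma, adjusted p = 0.803). The symbols CYP71 and CYP59 on the same platform resemble P450 names but belong to cyclophilins and were not counted.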
